A study of Mus musculus with 9 samples.

Results

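Glucocorticoid signalling was followed in the mouse atrioventricular (AV) node through 8 genes, 2 receptors, 1 activating enzyme and 5 classical target genes. They were chosen by symbol as the rows of Nr3c1, Nr3c2, Hsd11b1, Fkbp5, Tsc22d3, Zbtb16, Sgk1 and Klf9, and all 8 were found among 34198 listed genes. All 8 also passed the filter on low values that left 12925 genes for testing. The AV node slows the impulse on its way between atria and ventricles, and each library was bulk RNA from microdissected nodes of C57BL/6J mice. There were 3 groups of 3 libraries. In the macrophage-depleted group the mice had the genotype Cd11bDTR, a diphtheria toxin receptor transgene under a promoter of the myeloid integrin gene Itgam, which is also active in monocytes and other myeloid cells. In the Cx3cr1 Cx43-/- group, connexin 43 (Gja1) was deleted in cells that express Cx3cr1, a fractalkine receptor of macrophages. The genotype of the third group is given as control. Toxin dose, interval to collection, time of day, sex, age, and whether control or Cx3cr1 Cx43-/- mice received toxin or carried Cre are not given in the sources used here. The 3 libraries of a group are called biological replicates, with no word on whether nodes were pooled.

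As background, glucocorticoids enter the cell and bind the glucocorticoid receptor (Nr3c1), which leaves a chaperone complex, moves to the nucleus and binds DNA elements built from inverted copies of a short half-site. The mineralocorticoid receptor (Nr3c2) binds the same hormones and much the same elements, and the enzyme encoded by Hsd11b2 protects it from them in aldosterone target tissues. The enzyme encoded by Hsd11b1 works in the other direction and regenerates active hormone inside cells. In heart muscle both receptors are present, and their target genes are used as readouts of hormone action.

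The deposited values were CPM, reads scaled to a common library total that is larger than the sum over listed genes. Listed genes held 28.3% to 44.0% of it in depleted libraries, 46.8% to 47.9% in Cx3cr1 Cx43-/- libraries and 42.8% to 48.7% in control libraries, so the libraries differed in scale. Low values fell on steps that put 1 CPM at about 52.1 to 64.9 reads, and the 8 genes rested on about 154 to 12714 reads per library, counting error only. The node genes Hcn4, Tbx3 and Cacna1g were above 0 in every library, with Hcn4 at 1.80 to 3.80 CPM in depleted, 15.5 to 19.9 CPM in Cx3cr1 Cx43-/- and 15.4 to 19.3 CPM in control libraries. Summed over 10 resident macrophage markers the level was 52.25 to 57.93 CPM in depleted, 354.9 to 450.2 CPM in Cx3cr1 Cx43-/- and 241 to 349.7 CPM in control libraries. Cyp11b1 and Cyp11b2, which make corticosterone and aldosterone in the adrenal cortex, were at 0 in all 9 libraries. Star, the cholesterol carrier of steroid-making cells, had 0.97 to 2.55 CPM in depleted, 1.08 to 2.99 CPM in Cx3cr1 Cx43-/- and 1.59 to 2.69 CPM in control libraries. Fold changes below are log2 changes of CPM + 0.5 from limma over all 12925 genes, with standard error (SE) and Benjamini-Hochberg adjusted p, and a call is an adjusted p under 0.05.

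The first comparison asked how the pathway stood in the node after macrophage depletion. Against control, both receptor genes fell and Hsd11b1 rose. Of the 5 target genes, Fkbp5, Zbtb16, Tsc22d3 and Sgk1 rose, and Klf9 did not pass the test. This made 7 of 8 members called, where 36.2% of all tested genes were. Of them 5 were higher, where 3.23% of all tested genes were called higher, and 2 were lower, where 33% were called lower. The share of members called lower was thus near the background, and that of members called higher was not. The members were chosen with earlier results of these data known, so these shares describe the 8 genes and are no independent test. The median log2 change of the 8 members was 0.93, beside -0.49 over all tested genes.

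**Figure D1:**
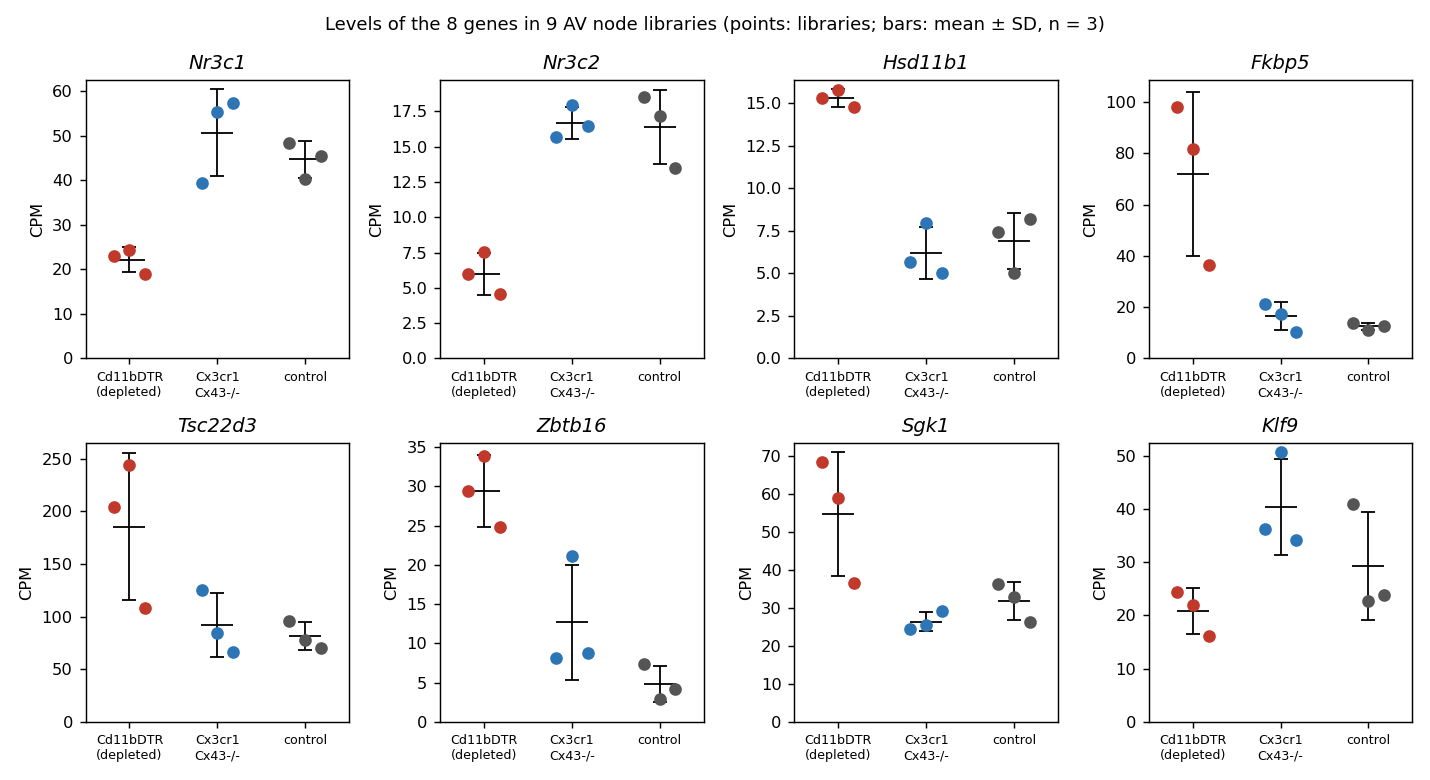
CPM (y axis, from 0) of each of the 8 genes in the 9 libraries, by group on the x axis; points are libraries in number order and bars are mean ± SD (n = 3). The 3 depleted libraries of Nr3c1 (19.05 to 24.42) and Nr3c2 (4.53 to 7.52) sit below every control library, those of Hsd11b1, Fkbp5, Tsc22d3, Zbtb16 and Sgk1 sit above, and those of Klf9 overlap.

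Nr3c1 measured 22.93, 24.42 and 19.05 CPM in depleted nodes 7, 8 and 9, against 48.44, 40.27 and 45.34 CPM in control libraries 1, 2 and 3. All depleted libraries lay below all control libraries, as they did for 38% of tested genes. The log2 change was -1.001 (SE 0.21, limma adjusted p = 0.00116), with a mean of 22.1 ± 2.77 CPM in depleted and 44.7 ± 4.12 CPM in control nodes (SD, n = 3 each). Nr3c2 measured 5.95, 7.52 and 4.53 CPM in depleted nodes, against 18.53, 17.18 and 13.47 CPM in control libraries. Its groups did not overlap either, and its log2 change was -1.39 (SE 0.25, limma adjusted p = 0.000256). Both falls were larger than the median of all tested genes. In bulk tissue, fewer cells of a type and less RNA per cell cannot be told apart. Of the marker genes of other cell types, 4 of 6 atrial and nodal, 3 of 4 ventricular, 3 of 5 endothelial, 4 of 4 mast cell, 3 of 3 Schwann cell and 0 of 6 fibroblast markers were called lower in depleted nodes against control, beside 33% of all tested genes, and 0 were called higher. The marker sums that follow are on the deposited scale and were not rescaled. Listed genes held the smallest shares of reads in depleted libraries 8 and 9 (37.7% and 28.3%), so a separation of sums can depend on scale. Summed atrial and nodal markers overlapped, at 2680 to 5563 CPM in depleted and 3782 to 6285 CPM in control libraries. The sums did not overlap for ventricular markers (2327 to 3257 CPM in depleted and 3816 to 6273 CPM in control libraries) or endothelial markers (141 to 255 CPM in depleted and 281 to 439 CPM in control libraries). Mast cell markers summed to 3.21 to 3.89 CPM in depleted and 10.8 to 26.2 CPM in control libraries, Schwann cell markers to 6.95 to 12.5 CPM in depleted and 19.2 to 27.5 CPM in control libraries, and fibroblast markers to 1725 to 1892 CPM in depleted and 2110 to 2326 CPM in control libraries (their part in the result was not tested).

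Genes of the receptor's chaperone complex had a median change close to that of all genes. Of 12 tested, 0 rose and 3 fell in depleted nodes against control, near the 33% called lower over all genes, with a median log2 change of -0.52 beside -0.49 over all genes. The fall was largest for Fkbp4, which encodes FKBP52, the immunophilin that takes the place of the Fkbp5 product when the receptor is activated. Fkbp4 measured 82.5 ± 22.4 CPM in depleted and 197 ± 16.2 CPM in control nodes (SD, n = 3 each), a log2 change of -1.29 (limma adjusted p = 0.000117). The co-chaperone St13 (-0.75) and the receptor-associated phosphatase Ppp5c (-0.68) were the other genes that fell, and Stip1, which links HSP70 and HSP90, missed the threshold (-0.57, limma adjusted p = 0.0588). Of 12 coregulators, 0 rose and 5 fell, with a median of -0.56, also near the 33% and the median of -0.49 over all genes. They included the p160 coactivators Ncoa2 (-0.87), Ncoa3 (-0.83) and Ncoa1 (-0.86) and the corepressor Ncor1 (-0.57). With median-of-ratios scaling, which centres each library on its typical gene, 2 chaperone genes were higher and 1 lower, and 1 coregulator was higher and 1 lower. Over all tested genes 13.3% were called higher and 13% lower on that scale. Fkbp4 and Ncoa2 were the genes still lower, and Bag1, Ptges3 and Nrip1, named after their values were seen, the higher ones.

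Hsd11b1 measured 15.32, 15.79 and 14.74 CPM in depleted nodes, against 7.41, 5.02 and 8.20 CPM in control libraries. The depleted libraries lay close together and all above control, as they did for 3.61% of tested genes. The log2 change was 1.12 (SE 0.27, limma adjusted p = 0.00295). Hsd11b2, the enzyme that inactivates the hormone, was too low to be tested, with 0 to 1.05 CPM in depleted, 0.02 to 0.32 CPM in Cx3cr1 Cx43-/- and 0 to 0.06 CPM in control libraries. H6pd, which feeds cofactor to the Hsd11b1 enzyme and is named here after its values were seen, did not pass the test on the deposited scale (26.8 ± 8.82 CPM in depleted and 22.1 ± 7.69 CPM in control nodes, log2 change 0.28, limma adjusted p = 0.428). It was called higher with columns rescaled to a common total (0.61, limma adjusted p = 0.0389), and likewise under median-of-ratios scaling (0.76, limma adjusted p = 0.0111). Of 7 tested genes of other steroid receptors and steroid handling, 0 rose and 0 fell on the deposited scale. Among those with the smallest p were the oestrogen receptor Esr1 (log2 change -0.99) and the steroid-exporting pumps Abcb1a (-0.41) and Abcb1b (0.39). The progesterone receptor Pgr did not exceed 0.08 CPM in any library.

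Fkbp5 encodes FKBP51, an immunophilin that lowers the receptor's affinity for hormone and is itself induced by it. It measured 98.19, 81.51 and 36.43 CPM in depleted nodes 7, 8 and 9, against 13.73, 11.03 and 12.65 CPM in control libraries. Every depleted library was above every control library, and library 9 was far below the other depleted libraries. The log2 change was 2.37 (SE 0.30, limma adjusted p = 4.25e-06). Zbtb16, a zinc finger transcription factor (PLZF) induced by glucocorticoids in many cell types, measured 29.47, 33.92 and 24.84 CPM in depleted nodes, against 7.36, 2.86 and 4.20 CPM in control libraries. It had the largest log2 change of the 8 genes, 2.57 (SE 0.33, limma adjusted p = 4.96e-06), with no overlap.

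Tsc22d3, which encodes the anti-inflammatory leucine zipper protein GILZ, measured 203.81, 244.10 and 108.24 CPM in depleted nodes, against 95.76, 77.70 and 70.26 CPM in control libraries. Library 9 exceeded the highest control library by a small margin, while libraries 7 and 8 stood well apart. The log2 change was 1.12 (SE 0.27, limma adjusted p = 0.00273). Sgk1, the serum and glucocorticoid regulated kinase that acts on ion channels and transporters, measured 68.56, 58.97 and 36.68 CPM in depleted nodes, against 36.40, 32.84 and 26.34 CPM in control libraries. On the deposited scale its lowest depleted and highest control libraries nearly touched. The log2 change was 0.74 (SE 0.23, limma adjusted p = 0.0175), a call that did not hold without control library 3 (0.61, limma adjusted p = 0.104), depleted library 7 (0.55, limma adjusted p = 0.0515) or depleted library 8 (0.66, limma adjusted p = 0.0643). Without any filter on low values the calls of Sgk1 (limma adjusted p = 0.0626) and Tsc22d3 (limma adjusted p = 0.0508) were also lost. After rescaling to a common total Sgk1 measured 67.3, 67.5 and 55.9 CPM in depleted nodes (limma adjusted p = 9.59e-05). Control libraries then had 32.3, 33.1 and 25.1 CPM. On that scale Tsc22d3 measured 165.1 CPM in depleted library 9, against 84.9, 78.3 and 66.9 CPM in control libraries. Klf9, a Krüppel-like transcription factor that responds to glucocorticoid and thyroid hormone, measured 24.38, 21.99 and 16.12 CPM in depleted nodes, against 40.88, 22.78 and 23.90 CPM in control libraries. The groups overlapped, and the log2 change of -0.45 (95% confidence interval -0.96 to 0.07, limma adjusted p = 0.159) did not pass the test.

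The sequence at the start sites was set beside these levels because 4 target genes rose together. The RefSeq windows (build GRCm38.p6, 250 bases before to 50 after a start, while the authors' notes name mm9) of 6 of the 8 genes, 13 windows in all, were searched on both strands for the full palindromic receptor element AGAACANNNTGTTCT and for its half-site AGAACA. The full element lay in 1 window of Sgk1, at bases -189 to -175 from the start, and in 0 of the other 12. Over all 32851 windows it occurred in 3, or 0.00913%, so exact copies this near to a start are rare in general. The half-site alone, which overlaps the full element wherever that occurs, was in 3 windows of Sgk1 and 1 of Tsc22d3, and in 19.0% of all windows. A looser form, GNACANNNTGTNC, was in 0.475% of all windows and in no member window other than that of Sgk1. The windows of Fkbp5, Klf9, Hsd11b1 and Nr3c2 held none of the 3 forms, which says only that these letters are not in those windows. Shown 5′ to 3′ are the Sgk1 window at chr10:21993640-21993939 on the plus strand, with the full element in capitals (its other half-site, nearer the 5′ end, is left in lower case), and the Tsc22d3 window at chrX:140600473-140600772 on the minus strand, with the half-site, read as its reverse complement, in capitals.
Sgk1: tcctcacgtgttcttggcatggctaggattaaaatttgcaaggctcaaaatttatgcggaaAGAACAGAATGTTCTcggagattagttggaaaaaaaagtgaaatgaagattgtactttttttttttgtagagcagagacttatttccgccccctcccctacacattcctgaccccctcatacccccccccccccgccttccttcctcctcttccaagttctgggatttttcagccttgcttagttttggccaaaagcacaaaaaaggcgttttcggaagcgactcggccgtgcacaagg
Tsc22d3: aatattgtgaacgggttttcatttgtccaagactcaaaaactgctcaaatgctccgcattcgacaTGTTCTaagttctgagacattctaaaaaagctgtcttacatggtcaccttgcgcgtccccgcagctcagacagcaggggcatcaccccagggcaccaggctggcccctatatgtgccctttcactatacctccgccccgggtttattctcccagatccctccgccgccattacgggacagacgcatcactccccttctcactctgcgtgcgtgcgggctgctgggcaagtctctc
A match describes the sequence and not binding, and the deposited gene totals do not separate the several start sites of Sgk1 and Tsc22d3.

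Since the listed genes held fewer of the reads in depleted libraries 8 and 9 than in any other library, each member was also fitted after rescaling. Rescaling to a common total moved the median of all genes to -0.18 and median-of-ratios scaling to -0.03 in depleted against control nodes. The same 5 members were higher and the same 2 lower under both, where 8.88% and 13.3% of tested genes were called higher and 19.7% and 13% lower. With median-of-ratios scaling Nr3c1 had a log2 change of -0.52 (limma adjusted p = 0.0183) and Nr3c2 of -0.93 (limma adjusted p = 0.00269), so the fall of Nr3c1 was about as large as the shift between scalings. The rises grew, to 2.85 for Fkbp5, 3.05 for Zbtb16, 1.61 for Tsc22d3, 1.22 for Sgk1 and 1.60 for Hsd11b1. Klf9 was near 0 on this scale, at 0.04 with a turned sign (limma adjusted p = 0.899). Depleted library 9 had the lowest deposited value of the depleted group for all 8 genes. After rescaling to a common total it measured 55.6 CPM for Fkbp5, still below 96.4 and 93.3 CPM in libraries 7 and 8, but highest of the 3 for Hsd11b1, at 22.5 CPM.

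**Figure D2:**
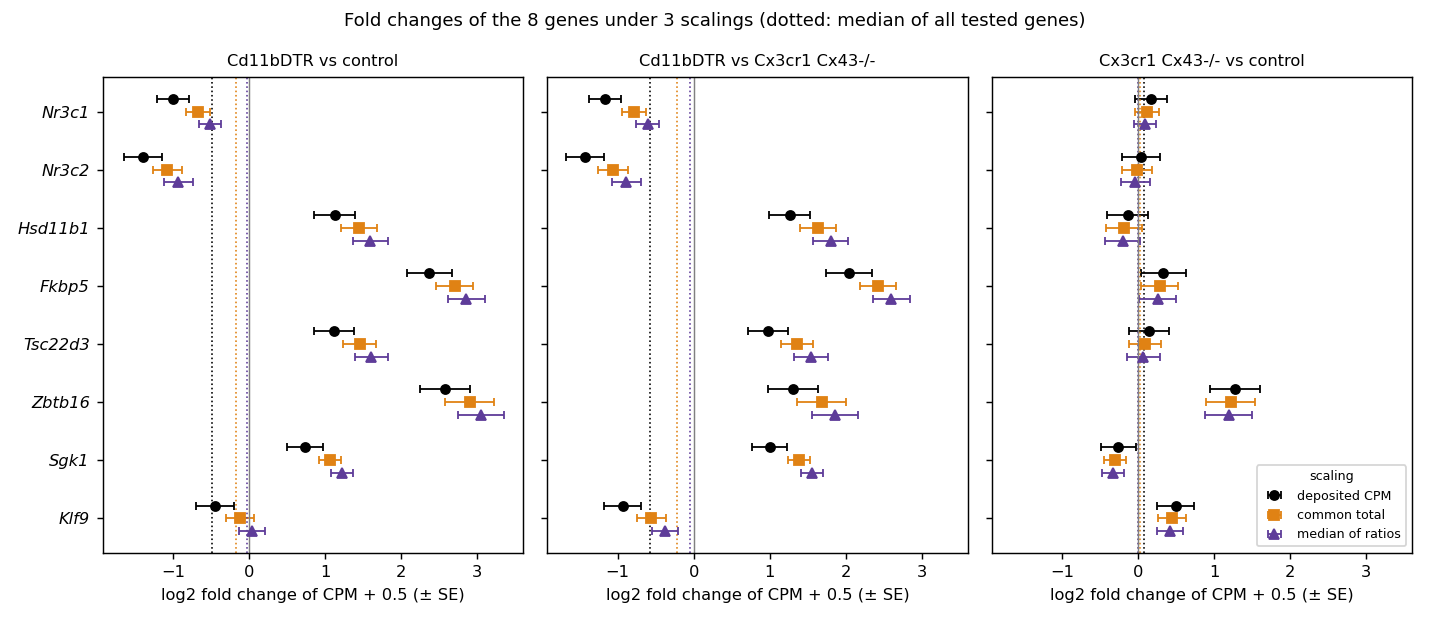
Log2 fold change ± SE (x axis) of the 8 genes (y axis) in the 3 comparisons, on deposited CPM, after rescaling to a common total and with median-of-ratios scaling; dotted lines are the medians of all tested genes. In both comparisons of depleted nodes Fkbp5, Zbtb16, Tsc22d3, Sgk1 and Hsd11b1 lie right of 0 and Nr3c1 and Nr3c2 left of it under all 3 scalings, while Klf9 crosses 0 against control.

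The ratio of each gene to Nr3c1 within a library does not move with the scale of that library, apart from the added 0.5. Log2 of Fkbp5 over Nr3c1 was 2.07, 1.72 and 0.92 in depleted libraries, against -1.78, -1.82 and -1.80 in control libraries. The control ratios were almost identical, and the depleted ones lay above 0 in all 3. The mean difference was 3.37 (exact two-sided permutation p = 0.1, the smallest that 3 against 3 libraries can give). Log2 of Zbtb16 over Nr3c1 was 0.36, 0.47 and 0.37 in depleted libraries, against -2.64, -3.60 and -3.29 in control libraries, a mean difference of 3.57 with the same exact permutation p = 0.1. Zbtb16 was the target that kept the tightest ratio to the receptor gene among depleted libraries (SD 0.06, against 0.59 for Fkbp5, 0.43 for Tsc22d3, 0.32 for Sgk1 and 0.17 for Klf9). The mean differences of Tsc22d3 (2.12), Hsd11b1 (2.12), Sgk1 (1.74) and Klf9 (0.55) were without overlap too, each with an exact permutation p = 0.1. For Klf9 the margin was small, with depleted library 9 at -0.23 and control library 1 at -0.24. Nr3c1 itself changed by -1.001, below the median of -0.49 over all genes, so a gene at that median also rises against Nr3c1. The share of all genes without overlap in this ratio was not computed. Nr3c2 over Nr3c1 overlapped between groups, at -1.86, -1.64 and -1.96 in depleted and -1.36, -1.21 and -1.71 in control libraries (exact permutation p = 0.2). These 7 ratios were tested in each of 3 comparisons, and 0 of them could pass 0.05 in this design.

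**Figure D3:**
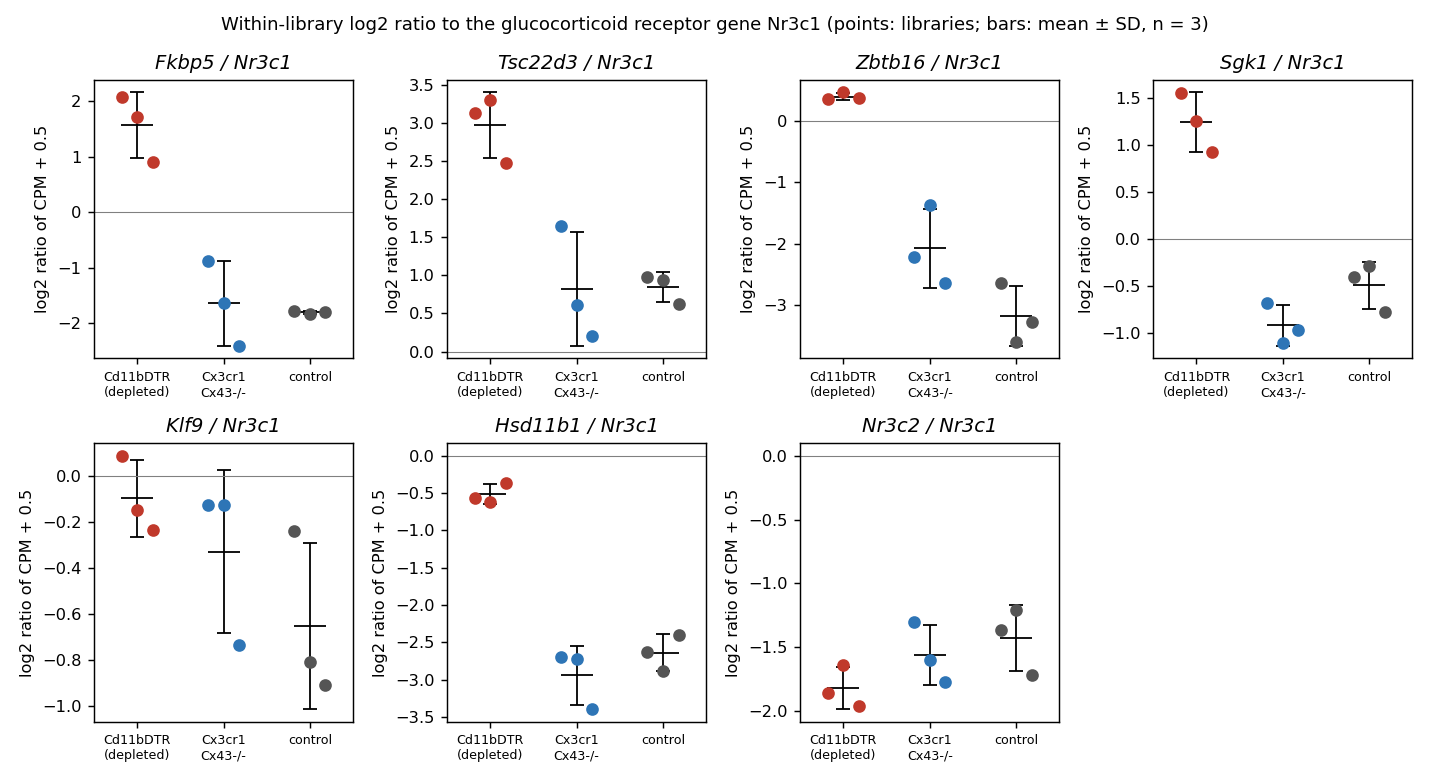
Log2 ratio of CPM + 0.5 of each gene to Nr3c1 within a library (y axis) by group (x axis); points are libraries in number order and bars are mean ± SD (n = 3). Fkbp5, Tsc22d3, Zbtb16, Sgk1, Klf9 and Hsd11b1 over Nr3c1 are above control in all 3 depleted libraries, and Nr3c2 over Nr3c1 overlaps.

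Other genes known to respond to glucocorticoids were taken from a list of 30, of which 28 were tested. The list was chosen with earlier results of these data known, so its counts describe these genes and are no independent test. In depleted nodes against control, 14 rose, 3 fell and 11 did not pass the test, with a median log2 change of 0.68 beside -0.49 over all genes, of which 3.23% rose and 33% fell. With columns rescaled to a common total 18 rose and 2 fell, where 8.88% of all tested genes rose and 19.7% fell. With median-of-ratios scaling 18 rose and 1 fell, where 13.3% of all tested genes rose and 13% fell. The counts without each library in turn were 11 to 17 higher and 2 to 5 lower. The metallothioneins, which bind zinc and are induced by metals as well as glucocorticoids, led the list. Mt2 measured 805.71, 667.07 and 241.96 CPM in depleted nodes, against 10.85, 7.18 and 11.27 CPM in control libraries (log2 change 5.65), and Mt1 had a log2 change of 3.76. Lcn2, a siderophore-binding protein that also answers to cytokines and to mineralocorticoids, reached 132.87, 99.26 and 61.73 CPM in depleted nodes, against 1.12, 2.12 and 2.48 CPM in control libraries (5.33). The metabolic targets Angptl4, a lipoprotein lipase inhibitor (3.20), and Pdk4, which restrains glucose oxidation (2.10), rose, as did the transcription factors Cebpd (2.12) and Cebpb (1.72). Lpin1, a phosphatidate phosphatase and also a known target, fell, at 28.1 ± 3.38 CPM in depleted and 64.5 ± 14.9 CPM in control nodes (-1.17, limma adjusted p = 0.000351). Many of these genes also answer to cytokines. The 6 monocyte and neutrophil markers summed to 30.79 to 50.44 CPM in depleted and 3.82 to 8.05 CPM in control libraries (their part in the result was not tested). In depleted libraries Chi3l3 measured 12.43 to 28.7 CPM and Ccr2 6.16 to 15.06 CPM, but S100a8 only 0 to 3.31 CPM and S100a9 0.28 to 1.52 CPM. Summed adipocyte markers measured 364.5, 736.5 and 267.2 CPM in depleted nodes 7, 8 and 9 and 245 to 282.9 CPM in control libraries. The part of adipocytes in the result was not tested either.

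**Figure D4:**
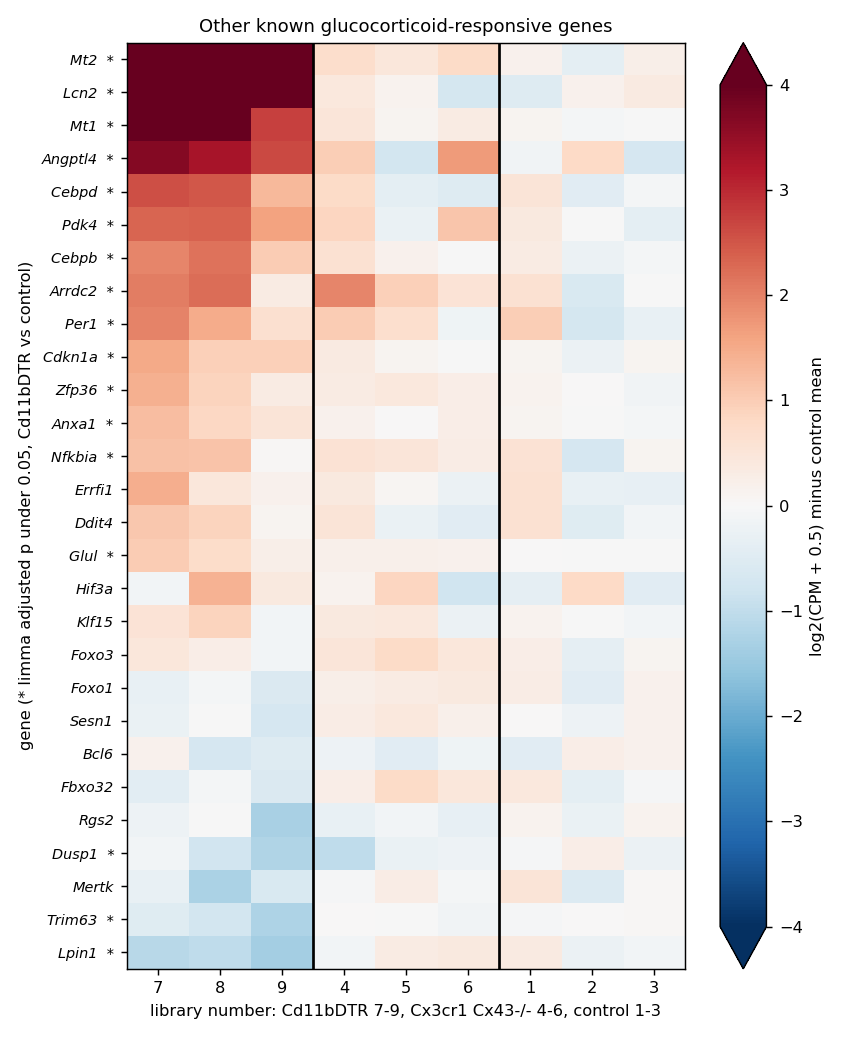
Log2(CPM + 0.5) minus the control mean (colour, saturating beyond 4 in either direction) of the 28 tested genes of the list (y axis, ordered by log2 change) in the 9 libraries (x axis); asterisks mark limma adjusted p under 0.05 for depleted against control nodes. Mt2 and Lcn2 are at full colour in all 3 depleted libraries, and Mt1, Angptl4, Pdk4, Cebpd and Cebpb are paler in library 9 than in libraries 7 and 8.

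Mineralocorticoid-responsive genes were counted from a list of 11, also chosen with earlier results known, of which 8 were tested. Of these 4 rose and 2 fell in depleted nodes against control, with a median of 1.18, where 3.23% of all genes rose and 33% fell, with a median of -0.49. The share that fell was near that of all genes. Beside Lcn2, those that rose included the matricellular gene Ctgf (log2 change 3.18) and the protease Adamts1 (1.92), which are induced by other signals as well. The 3 epithelial sodium channel subunits, the classical aldosterone targets of the kidney, were too low to be tested, with Scnn1a at 0 to 1.42 CPM in depleted and 0.03 to 1.17 CPM in control libraries. Atp1b1, a sodium pump subunit named after its values were seen, was among the list members that fell (-0.83). It was not called with median-of-ratios scaling (limma adjusted p = 0.0524). After rescaling to a common total 4 list genes rose and 1 fell, where 8.88% of all tested genes rose and 19.7% fell. On the median-of-ratios scale 4 list genes rose and 0 fell, beside 13.3% and 13% of all tested genes.

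The second comparison asked whether the pathway stood differently when macrophages were present but lacked connexin 43. Of the 8 members, 0 were called in Cx3cr1 Cx43-/- nodes against control, and limma called 1 of 12925 genes (0.00774% of genes, lower), with 191 genes at an unadjusted limma p under 0.05. Of the 28 other targets tested, 0 were called. All Cx3cr1 Cx43-/- libraries lay above all control libraries for 6 of the 28, a larger share than the 5.94% over all tested genes. They lay below for 0 of the 28, where 3% of tested genes did. The list was chosen with earlier results known, so these shares are no independent test. Nr3c1 measured 39.48, 55.28 and 57.37 CPM in Cx3cr1 Cx43-/- libraries 4, 5 and 6, on both sides of the control range, with a log2 change of 0.17 (95% confidence interval -0.27 to 0.61). For Nr3c2 the change was 0.03 (-0.48 to 0.55), for Hsd11b1 -0.14 (-0.69 to 0.42), for Fkbp5 0.33 (-0.29 to 0.95), for Tsc22d3 0.14 (-0.41 to 0.69) and for Sgk1 -0.26 (-0.74 to 0.22). These intervals exclude the rises of Fkbp5, Tsc22d3, Sgk1 and Hsd11b1 that were estimated for depleted nodes, and the falls of both receptor genes. Klf9 measured 36.13, 50.64 and 34.24 CPM, overlapping control only through control library 1, with a change of 0.49 (-0.02 to 1.003).

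Zbtb16 was the member that stood apart in this comparison without passing the test. It measured 8.12, 21.08 and 8.80 CPM in Cx3cr1 Cx43-/- libraries, against 7.36, 2.86 and 4.20 CPM in control libraries. All 3 lay above all control libraries, as they did for 5.94% of tested genes, and library 5 was far above the other Cx3cr1 Cx43-/- libraries. The log2 change was 1.27 (SE 0.33, 95% confidence interval 0.59 to 1.94), among the 1.48% of genes with an unadjusted limma p under 0.05, but the limma adjusted p was 0.962 and lay between 0.345 and 1 under all alternatives tried. Without Cx3cr1 Cx43-/- library 5 the change was 0.84.

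The third comparison set the 2 manipulated groups side by side, with macrophages lost in one and present in the other. All 8 members were called in depleted against Cx3cr1 Cx43-/- nodes, as were 43.4% of tested genes. Of the 8, 5 were higher, where 2.69% of tested genes were called higher, and 3 lower, where 40.7% were. Depleted libraries lay wholly above Cx3cr1 Cx43-/- libraries for 4 members and 3.39% of genes, and wholly below for 3 members and 50.6% of genes. With columns rescaled to a common total the counts of members were the same, where 8.56% of genes were higher and 21% lower, and with median-of-ratios scaling 5 were higher and 2 lower, where 13.2% were higher and 13% lower. The comparison shares its depleted libraries with the first, so the results are not independent. Fkbp5 measured 98.19, 81.51 and 36.43 CPM in depleted nodes, against 21.24, 17.46 and 10.46 CPM in Cx3cr1 Cx43-/- libraries (log2 change 2.04, SE 0.30, limma adjusted p = 2.60e-05). Zbtb16 rose by 1.31 on the log2 scale (SE 0.33, limma adjusted p = 0.00351) and was no longer called without a filter on low values (limma adjusted p = 0.0519). Sgk1 (0.998, limma adjusted p = 0.00202) and Hsd11b1 (1.26, limma adjusted p = 0.00101) rose without overlap. Tsc22d3 rose by 0.98 on the log2 scale (limma adjusted p = 0.00592), with depleted library 9 at 108.24 CPM below Cx3cr1 Cx43-/- library 4 at 125.00 CPM. It was not called without depleted library 8 (limma adjusted p = 0.0520) or without a filter (limma adjusted p = 0.0674). After rescaling to a common total Tsc22d3 measured 165.1 CPM in depleted library 9 and 115.1 CPM in Cx3cr1 Cx43-/- library 4 (limma adjusted p = 0.000332). Nr3c1 (-1.17, limma adjusted p = 0.000255) and Nr3c2 (-1.43, limma adjusted p = 0.000176) fell, also with median-of-ratios scaling (-0.61 and -0.89). Klf9 fell as well (20.8 ± 4.25 CPM in depleted and 40.3 ± 8.97 CPM in Cx3cr1 Cx43-/- nodes, -0.94, limma adjusted p = 0.00513), but not with median-of-ratios scaling (-0.38, limma adjusted p = 0.124), quantile normalization (-0.46, limma adjusted p = 0.0648) or without Cx3cr1 Cx43-/- library 5 (-0.76, limma adjusted p = 0.0512). Of the 28 other targets, 10 rose and 5 fell, and 16 rose and 1 fell with median-of-ratios scaling.

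Likeness to other genes was measured over the 9 libraries as the root mean square difference of log2(CPM + 0.5) between profiles centred on their own means, among 9061 genes with a mean of at least 5 CPM, leaving out ribosomal proteins, microRNAs and placeholder symbols. The gene most like Fkbp5 was Lrg1, a secreted glycoprotein of the acute phase (difference 0.27, where Fkbp5 itself had a spread of 1.14), followed by Adamts1 (0.30). For Zbtb16 it was Per2, a repressor of the circadian clock (0.37), at 20.1 ± 8.16 CPM in depleted, 6.68 ± 2.16 CPM in Cx3cr1 Cx43-/- and 3.56 ± 1.46 CPM in control nodes, followed by Ifi204 (0.48). The genes most like Tsc22d3 were Pdlim3 and Nhp2 (both 0.21), and Dnajb5 was among those most like Sgk1 (0.14). Hsd11b1 was closest to Cd52 (0.22) and Gpnmb (0.23), both of which are expressed in leukocytes. Nr3c1 was closest to the orphan nuclear receptor Esrrg (0.08) and to Rab3il1 (0.08), and Nr3c2 to Osbpl6 (0.11) and Armc2 (0.12). Klf9 was closest to Mtf1 (0.08), the metal-responsive transcription factor that drives metallothionein genes, and to Smg6 (0.15). The libraries share group and column scale, so the measure describes likeness in these libraries and no more.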

How the data were processed

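Bulk RNA-seq of 9 mouse AV node libraries entered. Per the labels' protocols, DNase-treated total RNA was made into strand-directional libraries. The submitters' processing notes name the build mm9 and the tools HTSeq 0.6.0, STAR 2.3.0 and edgeR, without saying what each did. No source used here names the annotation. The authors deposited CPM rounded to 2 decimals for 34198 symbols, and the columns matched the samples by name. The rounding keeps whole reads from being rebuilt to the accuracy a count model needs, so none was fitted.

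Here limma 3.58.1 (R 4.3.3) was fitted to log2(CPM + 0.5) of all 9 libraries at once, with empirical Bayes variances trended on level and two-sided contrasts. A gene needed 1 CPM or more in 3 or more libraries to be tested (12925 did), with Benjamini-Hochberg adjustment over all of them. The added 0.5 understates changes of low genes. The fit was checked on simulated data with independent noise and no difference in library scale, so the check does not bear on scale. Ratios used exact permutation tests (scipy 1.17.1). Genes named beyond the 8 members were, per list, up to 4 tested genes (8 for other glucocorticoid targets) with the smallest p in depleted against control nodes, and for each member the 2 most similar genes; a few genes that the rule names are not reported here. The members and lists were chosen with earlier results of these data known. Alternatives were other pseudocounts, filters and scalings, fits of only 2 groups, robust variance and each library left out. The p-values measure the spread between these libraries. Sequences are RefSeq windows of GRCm38.p6, and figures were drawn with matplotlib 3.10.9. No 2 columns were identical.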

Additional observations from a re-analysis of the deposited data

How the results depend on the processing

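No paired analysis was possible because the library numbers run from 1 to 9 and no number is shared between groups. Of 360 refits of the members' log2 changes, 342 kept their direction and their side of the threshold, 11 lost the call and 7 changed sign. In depleted against control nodes the lost calls were those of Tsc22d3 (1.12) and Sgk1 (0.74) without a filter on low values and, with 1 library left out, of Sgk1 (range 0.552 to 0.998), and Klf9 turned to 0.035 with median-of-ratios scaling. In depleted against Cx3cr1 Cx43-/- nodes they were those of Tsc22d3 (0.98) and Zbtb16 (1.31) without a filter, of Klf9 with median-of-ratios scaling (-0.38) and quantile normalization (-0.46), and, with 1 library left out, of Klf9 (range -1.06 to -0.76) and Tsc22d3 (0.74 to 1.32). In Cx3cr1 Cx43-/- against control nodes Nr3c2 turned to -0.016 with a common total, to -0.041 with median-of-ratios scaling and to -0.042 with quantile normalization, and ranged from -0.10 to 0.13 with 1 library left out, and Tsc22d3 ranged from -0.10 to 0.35. Of the ratios to Nr3c1, those of Fkbp5 (-0.22 to 0.54) and Tsc22d3 (-0.44 to 0.28) in Cx3cr1 Cx43-/- against control nodes changed sign with 1 library left out (Fkbp5 at -0.22 without library 4, Tsc22d3 at 0.04, 0.02, 0.08 and 0.28 without libraries 1, 2, 5 and 6). The number of members called ranged from 6 to 7 in depleted against control, from 7 to 8 in depleted against Cx3cr1 Cx43-/- and stayed at 0 in Cx3cr1 Cx43-/- against control nodes with 1 library left out.

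Over all genes, limma called 4678 in depleted against control nodes (417 higher, 4261 lower), and 2667 to 6241 with 1 library left out, the lowest without control library 1. With a common total the split was 1141 to 2532, with median-of-ratios scaling 1702 to 1674, and with quantile normalization 1579 to 1811. In depleted against Cx3cr1 Cx43-/- nodes 5604 were called, 3361 with median-of-ratios scaling, 3356 with quantile normalization and 3284 to 7036 with 1 library left out, the lowest without library 5. In Cx3cr1 Cx43-/- against control nodes 1 gene was called, 0 with a pseudocount of 0.1 or no filter, 2 with a pseudocount of 2 and 0 to 2 with 1 library left out. The count of other glucocorticoid targets called, an alternative set added after seeing the data, stayed within 13 to 20 of 27 to 30 tested in depleted against control and 10 to 18 in depleted against Cx3cr1 Cx43-/- nodes. The cause of these changes was not tested.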

Other observations

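Some receptor targets were too low to be tested and are given as values. Il1r2, a decoy receptor for interleukin 1 that glucocorticoids induce in leukocytes, measured 0.23 to 2.19 CPM in depleted and 0.15 to 0.20 CPM in Cx3cr1 Cx43-/- libraries and was listed at 0 in all 3 control libraries. Tat, a liver target, was listed at 0 in all depleted and Cx3cr1 Cx43-/- libraries and did not exceed 0.03 CPM in control libraries. Esr2 did not exceed 0.38 CPM in any library.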
